A study of Homo sapiens with 8 samples.

Results

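The heterogeneous nuclear ribonucleoproteins (hnRNPs) are abundant RNA-binding proteins that coat nascent transcripts, take part in splice site choice and accompany many messenger RNAs out of the nucleus. Several hnRNPs, among them hnRNP D, hnRNP DL, hnRNP H1 and hnRNP A2/B1, are known to have transcripts whose splicing lowers protein output, and retention of introns in the nucleus is a familiar feature of genes that encode RNA-binding proteins. Here the RNA of 10 listed hnRNP genes (HNRNPA1, HNRNPA2B1, HNRNPC, HNRNPD, HNRNPDL, HNRNPH1, HNRNPK, HNRNPL, HNRNPM and HNRNPU) was followed through 2 nuclear fractions by short reads and in the chromatin fraction by long reads. A gene counted as named in the short-read table where its identifier was given there, or where an assembled locus on the same strand overlapped the annotated span by at least 0.5 of their joint length. This rule named 8 of the 10 genes among 62635 short-read genes, and all 10 had transcripts in the long-read table. HNRNPD and HNRNPL lay in longer assembled loci that overlapped their annotated spans by 0.33 and 0.43 of the joint length. The locus holding HNRNPL also spanned ECH1 and the locus holding HNRNPD reached over unnamed noncoding genes, so the values of both loci are given apart and enter no count.

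All libraries came from HAP1, a near-haploid human leukemia line derived from KBM-7 that carries the BCR-ABL1 fusion, grown without any treatment or genetic change that differed between groups. Nuclei were extracted with urea and detergent, which left a chromatin pellet and released the nucleoplasm. The same volume of ERCC synthetic RNA standards was added to each fraction, and ribosomal RNA was depleted. Short reads were taken from 3 chromatin and 3 nucleoplasm libraries, both fractions being drawn from the same 3 cultures, and long reads from 2 chromatin libraries whose RNA had been given poly(A) tails by enzyme and read as direct cDNA on a nanopore device.

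The chromatin libraries held 38816272 to 43714811 reads in genes and the nucleoplasm libraries 75680880 to 79477655. The long-read values carry no depth, but the paper reports unequal read numbers for its HAP1 long-read replicates, lower for the replicate it lists first. The field that names the fraction reads chromatin for every library, so the titles were used, and the 4 fractionation markers went with the titles: MALAT1 and PVT1 were higher in chromatin, GAPDH and B2M in nucleoplasm. BCR and ABL1 were present in every library. The blood cell genes PTPRC, SPI1, MPO, GATA1 and ITGAM were at 0 in all 6 short-read libraries and CD33 and CD34 did not exceed 4.39 normalized counts, while VIM and LMNA were present at 3904 normalized counts or more and CAV1 at 36.1 or more.

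Pseudogenes bear on every count of HNRNPA1, the member with the most of them. Processed pseudogenes are intronless genomic copies of spliced messenger RNAs. The 60 coding bases of the canonical HNRNPA1 messenger RNA from position 724 to 783 are shown first. In the gene an intron of 134 bases (chr12:54282666-54282799, hg38, plus strand) splits them after base 35, and it is missing from the copies. Below them stand the matching stretches of 2 abundant HNRNPA1 pseudogenes, read from hg38 on the strand of each copy, 5′ to 3′. HNRNPA1P7, which was more abundant than HNRNPA1P8, is not shown. Capitals mark bases that differ from HNRNPA1.
HNRNPA1 mRNA: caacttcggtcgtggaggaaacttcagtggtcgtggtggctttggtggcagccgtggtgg
HNRNPA1P10 (chr19:11666330-11666389, minus strand): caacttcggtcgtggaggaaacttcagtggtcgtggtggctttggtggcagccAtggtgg
HNRNPA1P8 (chr7:84984197-84984256, plus strand): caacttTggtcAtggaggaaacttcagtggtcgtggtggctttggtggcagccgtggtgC
The stretch was chosen because both copies differ from the gene in it, HNRNPA1P10 by 1 base and HNRNPA1P8 by 3. Over the whole copy, 99.6% of the aligned bases of HNRNPA1P10 and 97.4% of HNRNPA1P8 equal the gene.

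The chromatin and nucleoplasm fractions were compared for each gene with limma on log2 of the normalized count plus 1, adjusted over 26489 tested genes, and the fraction difference of a gene is its log2 fold change, below 0 where the level was lower in chromatin. Of the 8 named hnRNP genes, 3 were higher in chromatin (HNRNPDL, HNRNPH1 and HNRNPU) and 5 were higher in nucleoplasm (HNRNPA1, HNRNPK, HNRNPA2B1, HNRNPM and HNRNPC). Of all tested genes 44.2% passed the same test as higher in chromatin and 45.0% as higher in nucleoplasm, 89.1% in all, so that passing it did not set hnRNP genes apart. None of the 8 passed the study's minimum of more than 4-fold, which 21.4% of tested genes passed towards chromatin and 8.60% towards nucleoplasm. The median log2 fold change was -0.48 over the 8 genes, -0.01 over all tested genes, -0.39 over the 12493 protein-coding genes tested and -0.67 over the 1107 protein-coding genes at least as abundant as the least abundant of the 8. The directions rest on the authors' size factors. With libraries set to equal ERCC totals, 0 of the 8 were higher in chromatin and the median of all genes moved to -1.32. With equal gene totals 4 were higher in each fraction and that median moved to 0.45. The shares of tested genes above were counted under the authors' size factors and do not serve as background for these counts. In RNA pooled over many nuclei, less RNA per nucleus and fewer nuclei holding an RNA cannot be told apart.

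HNRNPA1 encodes an abundant shuttling protein that competes with SR proteins in splice site choice. Its level was 25534, 23852 and 27071 normalized counts in the chromatin libraries and 73176, 73248 and 74050 in the nucleoplasm libraries. The fractions did not overlap, and the mean was 25486 ± 1610 (SD, n = 3) in chromatin against 73491 ± 485 in nucleoplasm. HNRNPA1 was thus 2.88 times as high in nucleoplasm, at a fraction difference of -1.53 ± 0.06 (SE; adjusted p = 5.26e-08, limma), the lowest of the 8.

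HNRNPK encodes a KH-domain protein that binds C-rich RNA and DNA. Its level was 15420, 13895 and 16108 normalized counts in chromatin and 41863, 40454 and 43103 in nucleoplasm, again with no overlap. The fraction difference was -1.47 ± 0.06 (SE; adjusted p = 9.93e-08, limma), close to that of HNRNPA1. The assembled locus also spans MIR7-1, a microRNA gene within HNRNPK.

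HNRNPA2B1 and HNRNPM stood between these genes and HNRNPC. HNRNPA2B1, whose protein is the close relative of hnRNP A1, had 29104, 29812 and 30827 normalized counts in chromatin and 51979, 50030 and 50875 in nucleoplasm. Its fraction difference was -0.77 ± 0.05 (SE; adjusted p = 9.21e-07, limma). HNRNPM, which encodes a splicing regulator that binds GU-rich RNA, had 9251, 9176 and 9198 in chromatin and 14404, 15472 and 15927 in nucleoplasm. Its fraction difference was -0.73 ± 0.05 (SE; adjusted p = 1.42e-06, limma). In both genes every nucleoplasm library was above every chromatin library.

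HNRNPC encodes a core protein of the hnRNP particle that binds uridine tracts. It had 39749, 41442 and 40750 normalized counts in chromatin and 47730, 46391 and 48601 in nucleoplasm, the smallest fraction difference of the 8. The fraction difference of -0.23 ± 0.05 (SE; adjusted p = 0.0022, limma) passed the test and the fractions did not overlap, but with equal gene totals it turned to 0.24. The HNRNPC locus also spans LINC00641, a long noncoding RNA gene on the same strand.

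The 3 genes that were higher in chromatin were so under the authors' size factors and under equal gene totals, and lay below 0 with equal ERCC totals. HNRNPDL, the close relative of HNRNPD, had 11031, 10826 and 10408 normalized counts in chromatin and 5606, 5723 and 5595 in nucleoplasm. Its level was 1.91 times as high in chromatin, at a fraction difference of 0.93 ± 0.04 (SE; adjusted p = 1.26e-07, limma), the highest of the 8, and of -0.39 with equal ERCC totals (adjusted p = 0.0555). HNRNPH1, whose protein binds G-rich RNA, had 15447, 17195 and 17031 in chromatin and 11220, 11330 and 11468 in nucleoplasm. Its fraction difference was 0.54 ± 0.05 (SE; adjusted p = 1.50e-05, limma), or -0.78 with equal ERCC totals. HNRNPU, also known as scaffold attachment factor A and held to link RNA and chromatin, had 39706, 42407 and 39168 in chromatin and 29532, 28651 and 29018 in nucleoplasm. Its fraction difference was 0.48 ± 0.05 (SE; adjusted p = 2.85e-05, limma), or -0.85 with equal ERCC totals. In each of the 3 genes the fractions did not overlap. All 8 genes were non-overlapping between the fractions, as were 90.5% of all tested genes, 44.6% with chromatin higher and 45.8% with nucleoplasm higher.

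The locus holding HNRNPD, which encodes the AU-rich element binding protein AUF1, had 9889, 9801 and 9531 normalized counts in chromatin and 9897, 9158 and 9511 in nucleoplasm. Its fractions overlapped and its fraction difference was 0.03 ± 0.05 (SE; adjusted p = 0.509, limma). The locus holding HNRNPL, which encodes a CA-repeat binding splicing factor, had 4883, 4340 and 4551 in chromatin and 12603, 12126 and 12320 in nucleoplasm. Its fraction difference was -1.43 ± 0.05 (SE; adjusted p = 4.52e-08, limma). What share of that locus came from ECH1 was not tested.

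**Figure D1:**
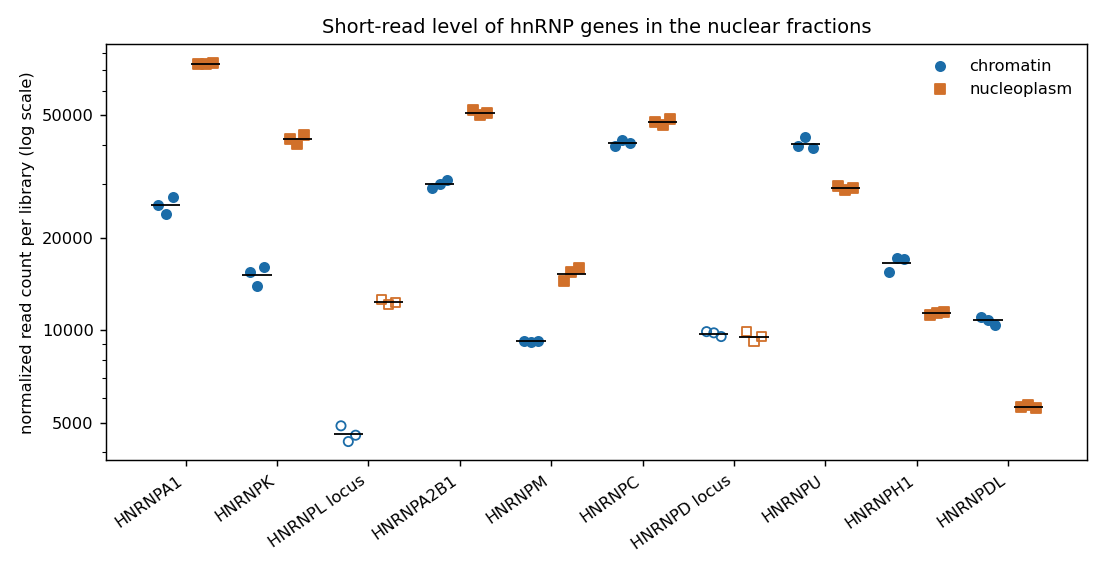
Normalized read count of each hnRNP gene (log scale) in the 3 chromatin libraries (circles) and the 3 nucleoplasm libraries (squares), with a black bar at each mean and genes ordered by log2 fold change. Open symbols are the loci that hold HNRNPL and HNRNPD, and HNRNPA1 shows the widest separation, 25486 in chromatin against 73491 in nucleoplasm.

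**Figure D2:**
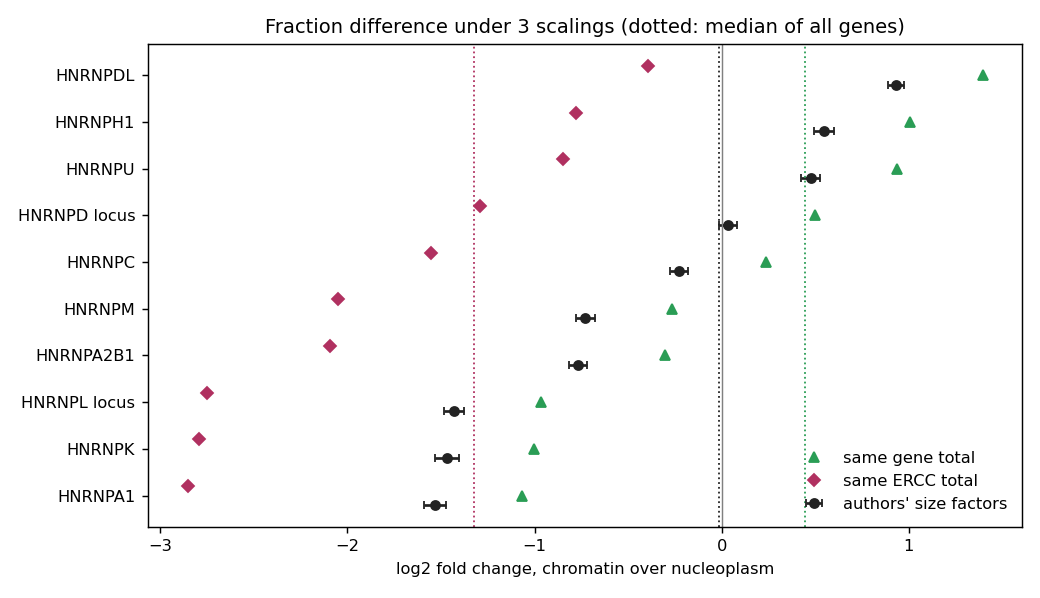
Log2 fold change of chromatin over nucleoplasm for each hnRNP gene or locus under the authors' size factors (circles, bars are SE), equal gene totals (triangles) and equal ERCC totals (diamonds), with dotted lines at the median of all tested genes under each scaling (-0.01, 0.45 and -1.32). The order of the genes stays as the points shift together, and with equal ERCC totals every gene lies below 0.

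Levels of different genes were compared per kilobase of the canonical transcript. Reads outside that transcript, introns included, are in the counts, so these are levels of the locus. In nucleoplasm HNRNPA1 led with 19629 ± 130 normalized counts per kilobase (SD, n = 3). HNRNPC (15031 ± 352), HNRNPK (14471 ± 459) and HNRNPA2B1 (14047 ± 269) followed, and neighbours in this order differed by less than the sum of their SDs. HNRNPM (6164 ± 316), HNRNPH1 (5062 ± 55.5), HNRNPU (4233 ± 64.4) and HNRNPDL (1290 ± 16.3) came after them in steps larger than their spread. In chromatin the order per kilobase was another one. HNRNPC led with 12843 ± 269, and HNRNPA2B1 (8245 ± 239), HNRNPH1 (7392 ± 431), HNRNPA1 (6807 ± 430), HNRNPU (5887 ± 253) and HNRNPK (5241 ± 392) formed a gradual series in which HNRNPH1 and HNRNPA1 differed by less than the sum of their SDs. HNRNPM (3718 ± 15.5) and HNRNPDL (2460 ± 72.6) were lowest. By mean normalized count the 8 genes lay between the 95.2 and 99.8 percentiles of tested genes. Together they took 0.371 to 0.405% of the reads in genes of a chromatin library and 0.412 to 0.415% of those of a nucleoplasm library.

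The log2 ratio of 2 related genes within a library does not depend on how libraries are scaled. Of 6 chosen pairs 5 could be formed, and in each the ratios of the chromatin libraries did not overlap those of the nucleoplasm libraries. Of all single genes tested 90.5% did not overlap either, and the share among other gene pairs was not counted, so this does not set these pairs apart. HNRNPA1 over HNRNPA2B1 was -0.23 ± 0.08 (SD, n = 3) in chromatin and 0.53 ± 0.03 in nucleoplasm, a difference of -0.76, so that HNRNPA1 was the lower of the pair in chromatin counts and the higher in nucleoplasm. The locus holding HNRNPD over HNRNPDL went from -0.14 ± 0.02 in chromatin to 0.75 ± 0.07 in nucleoplasm, a difference of -0.90. The widest shift was that of HNRNPH1 over HNRNPF, genes of the same G-tract binding group, at 1.24 ± 0.21 in chromatin and -1.18 ± 0.02 in nucleoplasm, a difference of 2.42. HNRNPU over HNRNPUL1 was 1.78 ± 0.15 in chromatin and 0.19 ± 0.02 in nucleoplasm, a difference of 1.59. HNRNPC over RALY, a related gene, was 3.69 ± 0.14 in chromatin and 2.42 ± 0.04 in nucleoplasm, a difference of 1.27. The exact two-sided permutation test gave p = 0.1 for each pair, adjusted p = 0.1 over the 5 pairs, which is the smallest p that 3 libraries against 3 allow.

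The other genes counted to the hnRNP family or working beside it were taken as a list of 29, of which 24 were named and tested. HNRNPH2, HNRNPUL2, SYNCRIP, TAF15 and NONO were not named by the rule. Of the 24, 4 were higher in chromatin, 19 were higher in nucleoplasm and HNRNPLL passed in neither direction (fraction difference -0.07, adjusted p = 0.247, limma), with a median of -0.50. Of all tested genes 44.2% were higher in chromatin and 45.0% in nucleoplasm, and of protein-coding genes 30.2% and 57.5%. Of protein-coding genes at least as abundant as the least abundant of the 8 members, these shares were 29.4% and 64.7%. With equal gene totals the split was 11 and 11, and with equal ERCC totals 0 were higher in chromatin. The shares above were counted under the authors' size factors, so the counts under other scalings are not read against them. The lowest were HNRNPA0 at -2.11 ± 0.06 (SE), an hnRNP A/B protein encoded without introns and the only one of the 24 past 4-fold, then HNRNPF at -1.88 ± 0.08 and HNRNPAB at -1.75 ± 0.05. The highest were SFPQ at 1.18 ± 0.08, a paraspeckle protein gene, PTBP2 at 0.98 ± 0.06, the neuronal relative of PTBP1, and TARDBP at 0.58 ± 0.05, which encodes TDP-43. SFPQ had 40811, 43859 and 40759 normalized counts in chromatin and 16673, 20960 and 18087 in nucleoplasm. HNRNPA0 had 3170, 2808 and 3154 in chromatin and 12735, 13223 and 13320 in nucleoplasm.

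Most tested pseudogenes of the members were higher in nucleoplasm, as was HNRNPA1, the parent of most of them. They were taken by name, a member's symbol followed by P and a number, and whether each is a processed copy was not checked. The annotation names 102, of which 74 are copies of HNRNPA1. The short-read table held 99 of them and 60 were tested. Of these 60, 57 were higher in nucleoplasm and 3 in chromatin, with a median log2 fold change of -2.07. Of all tested genes 45.0% were higher in nucleoplasm and 44.2% in chromatin. A lower log2 fold change than the parent gene or locus was found in 53 of the 60. Copies of HNRNPA1 were 46 of the 60, 44 of the 57 and 43 of the 53. HNRNPA1P10 had 1933, 1683 and 1997 normalized counts in chromatin and 8620, 8703 and 9073 in nucleoplasm, a fraction difference of -2.24. HNRNPA1P7 had 1879, 1606 and 1877 in chromatin and 7769, 7712 and 8009 in nucleoplasm, a fraction difference of -2.13. Both lie below the -1.53 of HNRNPA1. The 72 HNRNPA1 pseudogenes in the table summed to 29.8% of the HNRNPA1 mean in chromatin and to 45.6% in nucleoplasm, and adding them to the gene moved its log2 fold change from -1.53 to -1.69.

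The gap between copy and parent was wider for HNRNPC. Its top copy HNRNPCP2 (chr2:189923336-189924216, plus strand, 98.9% of aligned bases equal) had 1014, 855 and 1002 normalized counts in chromatin and 4333, 4458 and 4721 in nucleoplasm. The fraction difference was -2.24, against -0.23 for HNRNPC, and all 5 tested HNRNPC copies lay below the gene (-2.63 to -1.54). HNRNPC copies summed to 3.86% of the gene in chromatin and to 13.7% in nucleoplasm. The 3 tested copies of HNRNPK (-1.64 to -1.40) and the 2 of HNRNPL (-1.62 and -1.21) lay close to their parents. HNRNPUP1, the tested copy of HNRNPU, was at -0.80 against 0.48 for the gene.

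A short read of 50 bases that is identical in gene and copy cannot be placed by its sequence. The share of 50-base words of each copy that also occur in a transcript of the parent was therefore counted. It was 72.9% in HNRNPA1P10, 69.5% in HNRNPA1P7, 53.6% in HNRNPCP2 and 22.2% in HNRNPA1P8, with a median of 2.77% over the 60 tested copies. All 15 copies that shared 10% or more of their words were higher in nucleoplasm, as were 57 of the 60. Seen from the parent, 23.7% of the words of the canonical HNRNPA1 transcript, 15.4% of HNRNPC, 13.5% of HNRNPK and 18.3% of HNRNPL occurred in at least 1 copy, against 1.05% or less for HNRNPD, HNRNPH1 and HNRNPU. The 3 copies that were higher in chromatin shared 0 or 0.081% of their words. HNRNPA1P5 (chr15:67627852-67629135) had 58.2, 90.1 and 45.0 normalized counts in chromatin and 3.51, 0.86 and 0.84 in nucleoplasm. HNRNPH1P1 (chr6:159712801-159713985) had 53.6, 66.1 and 39.5 against 5.27, 3.44 and 4.22. HNRNPA1P66 (chr2:63751697-63752630) had 11.6, 26.4 and 12.1 against 2.63, 2.58 and 1.69. How many reads of any copy came from its parent was not tested.

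**Figure D3:**
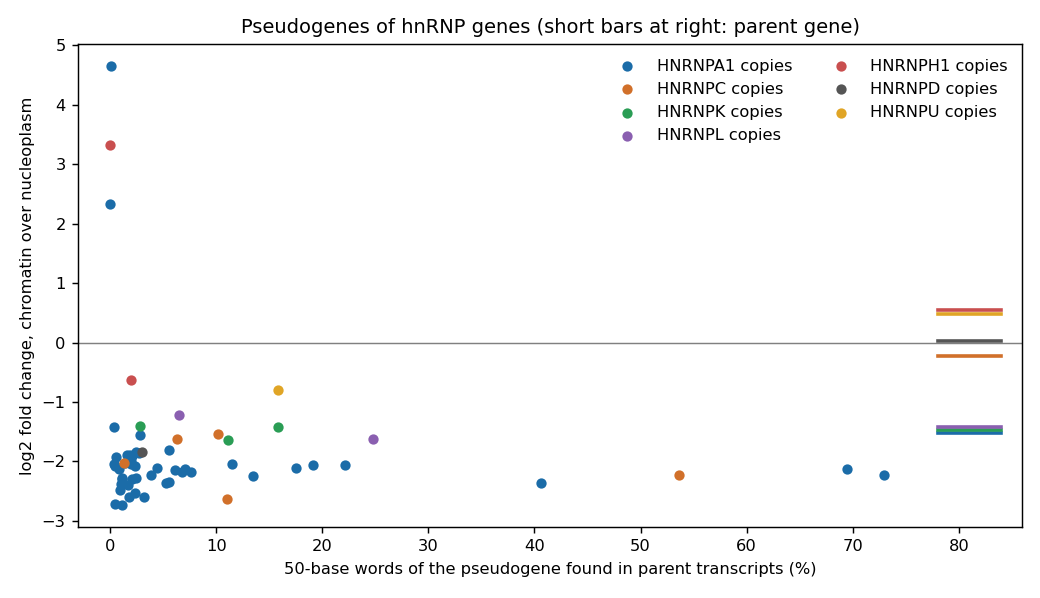
Log2 fold change of chromatin over nucleoplasm (vertical axis) of the 60 tested pseudogenes against the percent of their 50-base words found in transcripts of the parent gene (horizontal axis), coloured by parent, with a short bar at the right at the log2 fold change of each parent gene or locus. The 3 copies above 0 share almost no words, the copies with the highest shares lie near -2, and the HNRNPC copies lie well below the HNRNPC bar at -0.23.

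On the strand opposite to the members, the directional short-read libraries held protein-coding neighbours whose loci reach into a member. The top 3 were CBX3 (means of 5846 normalized counts in chromatin and 15114 in nucleoplasm) and NFE2L3 (527 and 2269), which overlap HNRNPA2B1, and ENOPH1 (2234 and 4116), which overlaps the end of HNRNPDL. COX20 (456 and 299), of which 0.47 lay inside HNRNPU, followed, and NFE2L3 lay 0.46 inside HNRNPA2B1. The counts do not show where along these loci the reads fell. Loci that lay mostly inside a member were scarce. The 3 loci on the opposite strand that lay at least 0.5 inside a member summed to 5.49 normalized counts or less in any library, or 0.00187% of the counts of the 10 gene loci plus these loci in chromatin. HNRNPK-AS1 was listed at 0 in all 6 libraries. HNRNPD-DT, the divergent transcript at the HNRNPD promoter, had means of 16.3 in chromatin and 12.1 in nucleoplasm, with overlapping libraries. A noncoding locus that runs over HNRNPA1 on the same strand (ENSG00000258344) had 10.5, 26.4 and 23.1 in chromatin and 4.39, 5.17 and 2.53 in nucleoplasm.

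Long reads of the chromatin fraction gave 91 transcripts above 0 that were assigned to the 10 hnRNP genes, of which 54 were above 0 in both libraries. With 2 libraries of 1 group there was no comparison to test, and the values are TPM, transcripts scaled to the same sum in each library, in library 1 and library 2. Each gene's value is the sum over its assigned transcripts, which leaves out shorter assembled transcripts inside the gene and reference identifiers that the annotation used here does not hold. HNRNPK had the highest mean, with 262 and 371 TPM, followed by HNRNPC with 258 and 284. HNRNPA1 had 216 and 63.8, HNRNPDL 155 and 79.6, HNRNPD 143 and 91.3, HNRNPA2B1 67.4 and 105, HNRNPU 110 and 39.2, HNRNPH1 59.1 and 73.0, HNRNPL 55.9 and 64.2 and HNRNPM 45.4 and 48.7. The values of neighbours in this order overlapped except between HNRNPC and HNRNPA1 and between HNRNPL and HNRNPM. With the transcripts left out added, HNRNPA2B1 had 121 and 149 TPM, HNRNPH1 99.2 and 118, HNRNPC 327 and 352 and HNRNPM 45.4 and 95.0, so that HNRNPC passed HNRNPK in mean and HNRNPM overlapped HNRNPL. The other 6 genes moved by less than 1.5 TPM. HNRNPA1 and HNRNPU differed most between the libraries. Whether differences between the long-read libraries go with their unequal read numbers was not tested. HNRNPK was 6th among the 8 genes per kilobase in the short-read chromatin libraries. By assigned long-read transcripts it was 1st of the 10, and below HNRNPC with the transcripts left out added. The scales and the sets of genes differ, and the long-read sums leave out the opposite strand, whose share differed between genes.

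The leading transcript differed in kind between the genes. For HNRNPK it was the protein-coding HNRNPK-204 with 176 and 257 TPM, 68.5% of the mean of the gene, and for HNRNPA2B1 the protein-coding HNRNPA2B1-209 with 56.0 and 63.6, or 69.5%. HNRNPC was spread over 17 transcripts, led by HNRNPC-213 with 68.9 and 110. The leading transcripts of HNRNPA1 (164 and 33.0 TPM) and HNRNPDL (112 and 50.9) were assembled from reads and matched no reference identifier. These 5 genes had the same leading transcript in both libraries.

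The other 5 genes each had another leading transcript in library 1 than in library 2. HNRNPM was led by the protein-coding HNRNPM-201 (37.0 and 0 TPM) in library 1 and by HNRNPM-202 (3.23 and 37.7) in library 2, where an identifier absent from the annotation that spans the gene (ENST00000620401) had 46.3 after 0 in library 1. HNRNPH1 was led in library 1 by the protein-coding ENST00000393432 with 36.2 and 0. An assembled transcript with the same ends had 28.4 and 35.1 TPM, the highest mean on that strand, and was not assigned because it overlapped the annotated gene by 0.476 of the joint length. HNRNPD was led by the protein-coding HNRNPD-201 (52.5 and 25.9) in library 1 and by an assembled transcript (50.9 and 30.5) in library 2. HNRNPU was led by 2 different assembled transcripts, with 42.3 and 8.77 for the first and 0 and 11.1 for the second. HNRNPL was led in library 1 by HNRNPL-211, annotated as retaining an intron, with 27.7 and 11.3, and in library 2 by the protein-coding HNRNPL-215 with 0 and 17.4.

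Transcripts that the annotation classes as retaining an intron were above 0 for 9 of the 10 genes. Such transcripts were above 0 for 61.1% of 3578 other protein-coding genes at 20 TPM or more. They made up 71.9% and 59.9% of HNRNPL in the 2 libraries, 61.3% and 36.5% of HNRNPU, 18.6% and 74.9% of HNRNPH1 (11.1% and 46.2% with the transcripts left out counted) and 11.0% and 48.3% of HNRNPA1. HNRNPK had 11.6% and 4.91%, HNRNPC 15.1% and 12.4%, HNRNPM 4.67% and 11.0%, HNRNPD 12.9% and 8.61% and HNRNPA2B1 17.0% and 31.9% (9.44% and 22.4%). HNRNPDL, the most chromatin-weighted gene by short reads, had none above 0, and the annotation holds no such transcript of it. The median share of the 10 genes was 16.6%, against 3.06% over 3578 other protein-coding genes at 20 TPM or more. The sets were not matched for level, with a median of 102 TPM over the 10 genes and 35.1 over the other genes. The 10 genes also had a median of 6 annotated transcripts of this class, against 2 for the other genes. Whether the share goes with level or with that number was not tested. Transcripts annotated as targets of nonsense-mediated decay were above 0 for HNRNPD (8.44 and 16.7 TPM) and for HNRNPH1 (0 and 2.96).

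The introns that such transcripts keep are shown for HNRNPD. There whole introns of the canonical transcript lie inside a single annotated exon of the leading retained-intron transcript. The same check found 2 kept introns in the leading such transcript of HNRNPA1 and of HNRNPA2B1, and 6 in that of HNRNPH1. It found 0 for HNRNPC, HNRNPK, HNRNPL, HNRNPM and HNRNPU, so there the class name alone does not show a kept canonical intron. HNRNPD-210 (18.4 and 7.86 TPM) keeps introns 4, 6, 7 and 8 of 8, towards the 3′ end of the gene. The lines give the splice sites from hg38, minus strand, 5′ to 3′, each as 30 bases of which 10 are exonic and 20 intronic, with the first and the last pair of intron bases in capitals.
HNRNPD intron 4 (chr4:82357445-82358658), donor: ttttggtgagGTatgttataaatgttttga
HNRNPD intron 4, acceptor: aatttgttttttaataccAGgtggaatcca
HNRNPD intron 6 (chr4:82356684-82356795), donor: agaggtggtgGTaagctagagcctaagttt
HNRNPD intron 6, acceptor: aacctattaatgtgctgcAGgccccagtca
HNRNPD intron 7 (chr4:82355402-82356536), donor: gattatagcaGTaagtactatactttttat
HNRNPD intron 7, acceptor: taacacttgttttattttAGaccagcagag
HNRNPD intron 8 (chr4:82354155-82355303), donor: tccccaacagGTatgttctaaaaatagttt
HNRNPD intron 8, acceptor: tttttcttctttgtctccAGgtggtgaagc
All of these introns begin with GT and end with AG. These structures are the annotation's, since the long-read table gives a span and an identifier for each transcript and no exons.

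Long-read transcripts assembled on the strand opposite to an hnRNP gene made up 34.9% and 36.2% of the TPM over the 10 genes in the 2 libraries. They were present at each of the 10 genes, 42 transcripts in all, and at 92.2% of the 3578 other protein-coding genes. The share ran from 13.8% and 14.1% at HNRNPK to 73.9% at HNRNPA2B1 in library 1 and 55.3% at HNRNPU in library 2, where HNRNPA2B1 had 54.6%, and was 57.5% and 51.2% at HNRNPH1. With the same-strand transcripts left out counted, the shares fell to 61.2% and 45.8% at HNRNPA2B1, to 44.6% and 39.3% at HNRNPH1 and, over the 10 genes, to 32.4% and 32.7%. A transcript on the strand opposite to HNRNPA1 with 0 and 458 TPM, the highest value at any member, was not counted because 0.107 of its span lay inside the gene. Counted, it raised the share in library 2 from 45.9% to 88.9% at HNRNPA1 and to 48.5% over the 10 genes. The median over the 10 genes was 36.2%, against 30.5% (upper quartile 42.9%) over the 3578 other protein-coding genes, so it was not particular to hnRNP genes. Of the 42, 35 began or ended within 200 bases of an end of a same-strand transcript and 12 had both ends so placed. All 4 at HNRNPH1 had both ends so placed. The library method does not keep strand, and whether the deposited table was made before or after the authors' assignment of strand to reads is not stated. In the directional short reads, loci at least 0.5 inside a member made up the 0.00187% above on that side, without the neighbours that reach in from outside.

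**Figure D4:**
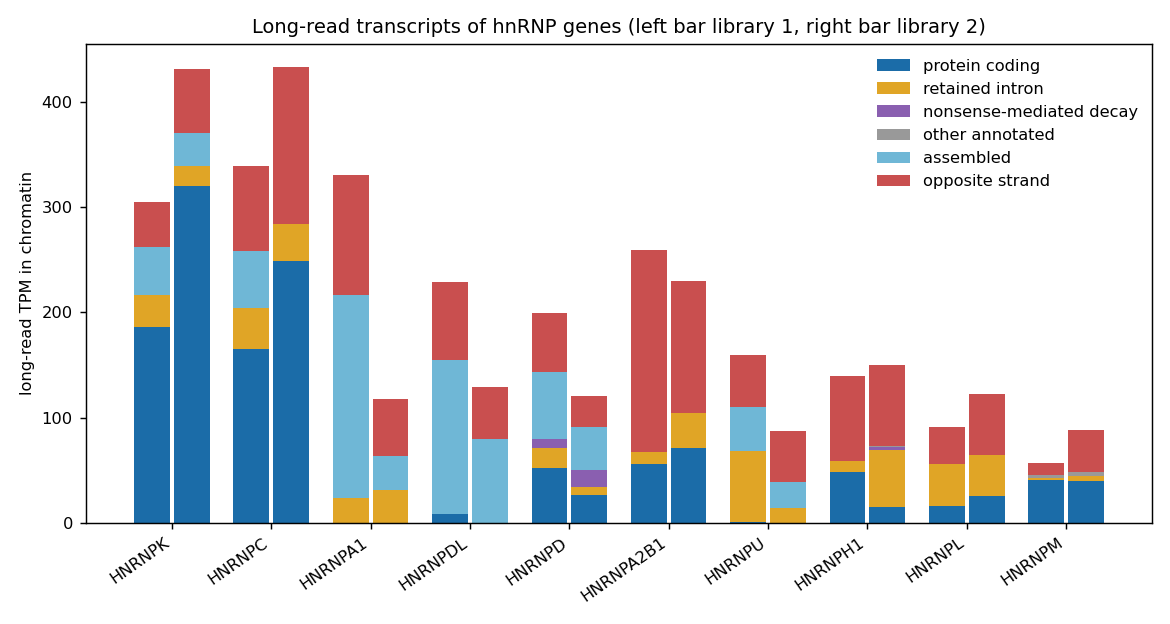
Long-read TPM in chromatin for each hnRNP gene, with library 1 as the left bar and library 2 as the right, stacked by annotated class of transcript, transcripts assembled without a reference identifier, and transcripts on the opposite strand. Without the opposite strand, HNRNPK and HNRNPC are mostly protein coding and HNRNPDL mostly assembled. At HNRNPA2B1 the opposite strand takes 73.9% and 54.6% of the whole bar.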

How the data were processed

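RNA from chromatin and nucleoplasm of HAP1 nuclei was measured. For short reads, the authors aligned with HISAT2 2.1.0 to hg38 plus ERCC sequences, assembled and counted with StringTie guided by GENCODE, and deposited a signal per gene and library, the count after scaling with size factors from DESeq2 (normalized read count). Long reads were aligned by the authors with minimap2, assembled with StringTie and deposited as TPM per transcript. Groups came from sample titles.

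Dividing each short-read value by the smallest of its library gave whole reads for 100% of values. Genes reaching 10 normalized counts in 3 or more libraries were tested with limma 3.58.1 (trend, fraction only, pseudocount 1, R 4.3.3, Benjamini-Hochberg), tested on simulated data first. A fold change is on the log2(value + 1) scale. Tests of the recovered reads by edgeR 4.0.16 and by DESeq2 1.42.0, other scalings, filters, pseudocounts, a replicate block and leaving out libraries were tried. Depth covers counting error only. All value columns belonged to a library.

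Names, classes and coordinates came from GENCODE v44 on hg38. The guide was an earlier release, so 13 of 76 assigned reference transcripts had another identifier version, among them the HNRNPA1 one with a retained intron. Opposite-strand transcripts were counted where at least 0.5 of them lay inside a gene. Pseudogenes were aligned to the canonical transcript with Biopython 1.88 and identity leaves gaps out. Named were all members, the 3 highest and 3 lowest other family genes, pair genes, the top 3 related loci per class and each gene's leading long-read transcript. The pseudogenes that were higher in chromatin, HNRNPA1P8, HNRNPUP1 and some further transcripts were named after their values were seen. The members and lists were chosen with earlier results of these data known.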

Additional observations from a re-analysis of the deposited data

How the results depend on the processing

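Over the members, the counts of 3 higher in chromatin and 5 higher in nucleoplasm held under TMM factors, both pseudocounts, both filters, edgeR, DESeq2, a span over 200 bases (chosen after seeing the data) and with any library left out. Scaling moved them. With equal gene totals HNRNPC turned to 0.24 (4 members in each fraction), the median of members was -0.013, that of other family genes -0.035 (11 higher in chromatin, 11 in nucleoplasm, 0 past 4-fold), that of pseudogenes -1.61 (7 past 4-fold towards nucleoplasm) and that of all genes 0.45 (1037 past 4-fold towards nucleoplasm). With equal ERCC totals HNRNPDL was at -0.39, HNRNPH1 at -0.78, HNRNPU at -0.85 and the HNRNPD locus at -1.29. Members then had 0 higher in chromatin, 4 past 4-fold towards nucleoplasm and a median of -1.80. Other family genes had 0, 11 and -1.82, 56 pseudogenes passed 4-fold (median -3.38), and of all genes 6042 were higher in chromatin, 3215 past 4-fold there and 9133 in nucleoplasm (median -1.32). The cause was not tested. Without a filter the median of all genes was 0.36. At a mean of 50 or more it was -0.25, with 7522 genes higher in chromatin, 2975 past 4-fold and 0 pseudogenes there on either rule, since fewer genes were tested. At more than 2-fold 8570 and 7122 genes and 2 members in nucleoplasm passed.

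Leaving out a library gave 3 and 5 members each time, other family counts of 4 and 16 to 19, and 31 to 39 pseudogenes past 4-fold towards nucleoplasm. Both fractions came from the same cultures, but the labels do not say that a replicate number marks a culture, and same-number libraries deviated together only weakly (correlations 0.078, 0.055 and 0.061, each highest for the own number). A replicate block gave 3 and 5 members, 18 other family genes in nucleoplasm, and 11671 and 11876 genes in all. The pair HNRNPL and HNRNPLL was not run, because HNRNPL was not resolved. The mean long-read sum of 1296 TPM was 1457 with all same-strand transcripts inside the genes, 1480 with identifiers absent from the annotation also added (chosen after seeing the data), 919 with reference identifiers only and 1718 on either strand. By either library alone it was 1219 and 1373. The locus holding HNRNPD passed the test under DESeq2 (0.12) and under equal gene totals (0.50).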
